A study of Caenorhabditis elegans with 12 samples.

Results

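The lipl genes of Caenorhabditis elegans encode lipases of the acid lipase family, named for lysosomal lipase-like proteins. The 8 members lipl-1 to lipl-8 were taken by their gene symbol in the platform annotation, and each was read by 1 probe set, a group of oligonucleotides that report on a transcript. They are 8 of 17118 genes with a probe set of their own, and 8 of the 22548 probe sets on the array. No probe set that carries several gene symbols names a member. The probe sets of 7 members carry the plain suffix for a set designed to 1 transcript. That of lipl-3 carries the suffix for a set that may match several transcripts, so its values can include related sequences.

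Lysosomal acid lipases cut fatty acids from triglycerides and cholesteryl esters that reach the lysosome, and in C. elegans several lipl genes are induced in the intestine by fasting. The basic helix-loop-helix factors MXL-3 and HLH-30 act on these genes in opposite senses, MXL-3 as a repressor in fed animals and HLH-30, the worm relative of TFEB, as an activator in fasted ones. LIPL-4 is also known for a lysosome-to-nucleus lipid signal, carried by the fatty acid binding protein LBP-8 to the nuclear receptors NHR-49 and NHR-80, that prolongs life when lipl-4 is overexpressed.

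Total RNA of whole, synchronized wild-type adults of strain N2 Bristol was measured on 12 Affymetrix arrays. All animals had been plated as embryos and cultivated at 23 °C for 2.5 days. They were taken just before a move to 17 °C (0 h, 4 arrays) or 1 h (2 arrays), 2 h (2 arrays) and 4 h (4 arrays) after it. There are no time-matched arrays of animals left at 23 °C, so elapsed time and handling cannot be told apart from temperature. Whether replicates were separate cultures is not stated in the labels. The p-values therefore measure the spread between these samples, which may be technical. In RNA of whole animals, fewer cells of a type and less RNA per cell cannot be told apart.

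Values are log2 signals, with base 2 taken from the method the submitters name (RMA) and from the range of 1.51 to 14.36. The lower quartile of an array, used below as a mark of low signal, lay between 3.53 and 3.64. Whether a signal stood above background was not assessed. Levels are compared only within a gene, between arrays. The few arrays per time limit the precision of all values.

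At 4 h the signals of the lipl genes differed from 0 h in both directions. The transcripts of lipl-2, lipl-3 and lipl-5 lay lower than at 0 h and those of lipl-1 and lipl-4 lay higher, while lipl-6, lipl-7 and lipl-8 differed by less than 0.1 log2 units. None of the 8 members passed at an adjusted p of 0.05 in limma (two-sided, Benjamini-Hochberg over all probe sets), where 2.30% of all probe sets did. At an unadjusted p of 0.05, 2 of 8 members passed, lipl-2 and lipl-3, both lower, against 12.7% of all probe sets in either direction and 6.35% lower. The median change of the members was -0.05, beside -0.01 for all probe sets.

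**Figure D1:**
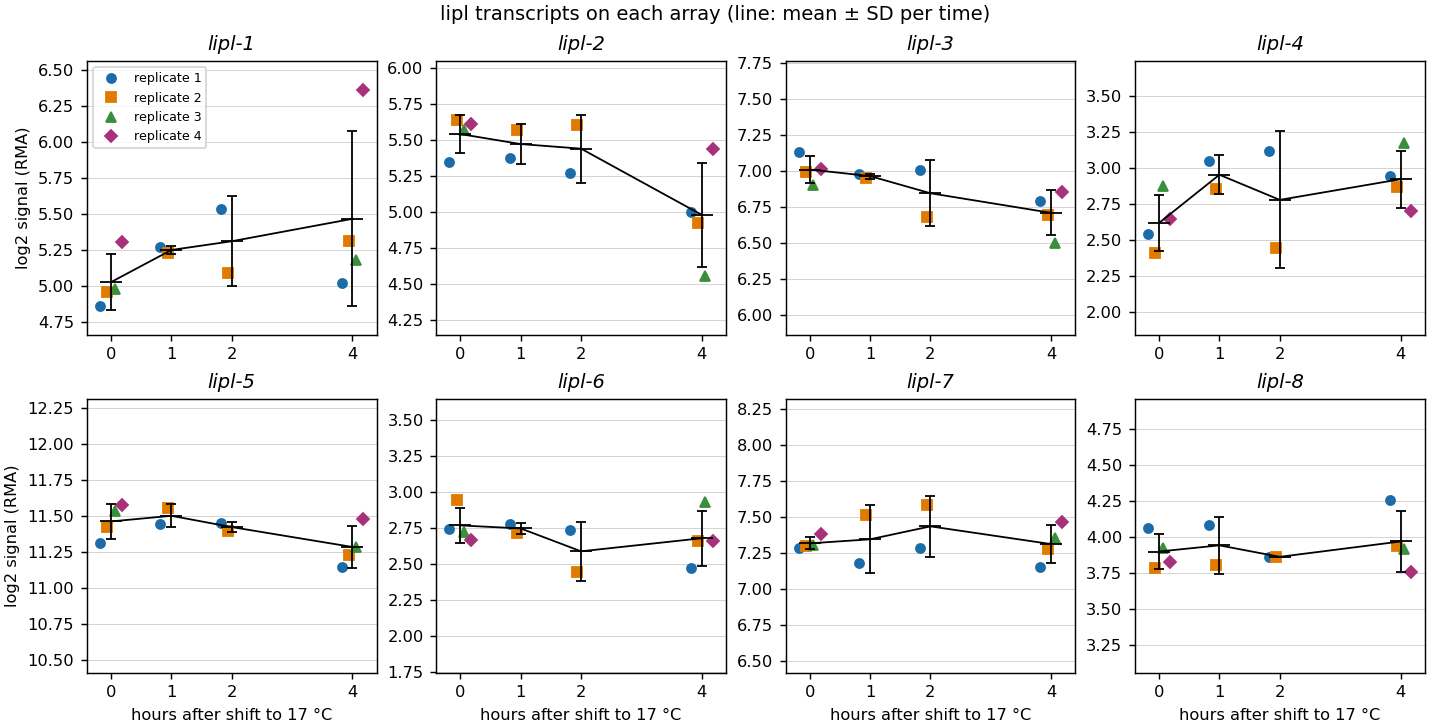
Log2 signal (y axis) of each lipl gene against hours after the shift (x axis); points are arrays, coloured by replicate number, and the line joins means with SD. Every panel spans the same height in log2 units. The 4 h arrays of lipl-3 all lie below its 0 h arrays, and replicate 4 at 4 h lies apart at 6.36 for lipl-1.

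The fasting-inducible lipase gene lipl-2 had the largest difference of the family at 4 h. At 0 h its log2 signal was 5.35, 5.64, 5.57 and 5.61 in replicates 1 to 4, and at 4 h it was 5.00, 4.92, 4.56 and 5.44. The groups overlapped only through replicate 4 at 4 h, which lay above replicate 1 at 0 h. The change was -0.56 (SE 0.153, 95% interval -0.89 to -0.23, limma adjusted p = 0.0854), a level of 0.678 of that at 0 h, from 5.54 ± 0.134 to 4.98 ± 0.363 (SD, n = 4 each). An exact two-sided permutation test of the 4 against 4 arrays gave p = 0.0571, not adjusted for the 8 members tested. Over all probe sets, 0 h and 4 h arrays of 1 replicate number shared deviations from their group means, and within these pairs lipl-2 was lower each time, by differences of -0.34, -0.72, -1.01 and -0.17. When replicate number entered the fit as a block, lipl-2 passed at 4 h (adjusted p = 0.0485 over the 12 arrays, where 2.73% of probe sets passed), but it did not over the 8 arrays of 0 h and 4 h alone (adjusted p = 0.0999). The 12-array fit also blocks the 1 h and 2 h arrays, which did not share deviations with the 0 h array of their number (r = -0.075 to 0.00773). Without replicate 4 at 4 h and with no block the change was -0.72 (adjusted p = 0.012). Over its 22 alternatives the adjusted p of lipl-2 ran from 0.012 to 0.311, and it passed in 2 of them.

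Before 4 h the differences of lipl-2 from 0 h were small. At 1 h its 2 arrays read 5.37 and 5.57, and at 2 h they read 5.27 and 5.61. In both times replicate 1 was the lower array, as it was at 0 h. The changes from 0 h were -0.07 (SE 0.187, adjusted p = 0.978) at 1 h and -0.10 (SE 0.187, adjusted p = 0.884) at 2 h. From 1 h and 2 h pooled to 4 h the change was -0.48 (SE 0.153, unadjusted p = 0.00818), which missed the threshold after adjustment (adjusted p = 0.214).

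The gene lipl-3, whose lipase is likewise known from the fasting response, was the 1 member of 8 whose 0 h and 4 h arrays did not overlap, as was so for 9.15% of all probe sets. Its log2 signal was 7.13, 6.99, 6.90 and 7.01 in replicates 1 to 4 at 0 h, and 6.79, 6.69, 6.49 and 6.85 at 4 h. Each 4 h array thus lay below each 0 h array. The change was -0.30 (SE 0.0951, 95% interval -0.51 to -0.10, adjusted p = 0.152), a level of 0.812 of that at 0 h. The exact two-sided permutation p of 0.0286 is the smallest that 4 against 4 arrays can give. It is not adjusted for the 8 members tested, and any gene whose 0 h and 4 h arrays do not overlap has it. In the blocked fit the adjusted p was 0.0667. The 1 h arrays (6.97 and 6.95) lay within the range of the 0 h arrays, and the 2 h arrays were split, with replicate 1 at 7.01 and replicate 2 at 6.68. The 2 h change of -0.16 therefore rests on 1 array: it was -0.33 without replicate 1 and 0.00 (-0.0018) without replicate 2.

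The intestinal lipase gene lipl-5 lay above the median of every array. Its log2 signal was 11.31, 11.42, 11.53 and 11.58 in replicates 1 to 4 at 0 h, and 11.14, 11.23, 11.28 and 11.48 at 4 h. The ranges overlapped, yet the order of the replicate numbers was the same at both times and each was lower at 4 h, by differences of -0.17, -0.20, -0.25 and -0.10. The change was -0.18 (SE 0.0867, 95% interval -0.36 to 0.01, adjusted p = 0.433), with an adjusted p of 0.212 with the block. At 1 h the arrays read 11.44 and 11.56 and at 2 h they read 11.45 and 11.40, inside the range at 0 h.

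Among members with higher signal at 4 h, the differences of lipl-1 and lipl-4 were the largest. The fasting-inducible gene lipl-1 read 4.87, 4.96, 4.98 and 5.31 in replicates 1 to 4 at 0 h and 5.02, 5.31, 5.18 and 6.36 at 4 h. The other 3 arrays at 4 h lay between 5.02 and 5.31, so the mean change of 0.44 (SE 0.232, 95% interval -0.06 to 0.94, adjusted p = 0.485) was drawn up by replicate 4. Without that array it was 0.14. Each replicate number was higher at 4 h, by 0.16, 0.35, 0.20 and 1.05, and the adjusted p with the block was 0.212. The values at 1 h (5.27 and 5.23) and 2 h (5.54 and 5.09) all lay above those of replicates 1 to 3 at 0 h, with changes of 0.22 and 0.28 (adjusted p = 0.952 and 0.742).

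The signal of lipl-4, the gene of the longevity signal, was below the lower quartile of its array on all 12 arrays, so its change is uncertain in size. It read 2.54, 2.41, 2.87 and 2.64 in replicates 1 to 4 at 0 h and 2.94, 2.87, 3.17 and 2.70 at 4 h. The groups overlapped, and each replicate number was higher at 4 h, by 0.40, 0.46, 0.30 and 0.05. The change was 0.30 (SE 0.147, 95% interval -0.01 to 0.62, adjusted p = 0.424, and 0.214 with the block). At 1 h the arrays read 3.05 and 2.85, a change of 0.33 (adjusted p = 0.805), and at 2 h they read 3.11 and 2.44, on opposite sides of the 0 h mean of 2.62.

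The other 3 members did not pass at any time. The gene lipl-6 also lay below the lower quartile on all 12 arrays, with the lowest at 2.44 (2 h) and the highest at 2.95 (0 h). Its change at 4 h was -0.09 (95% interval -0.31 to 0.14, adjusted p = 0.825). The gene lipl-7 lay between 7.15 and 7.58. Its 0 h arrays kept within 7.28 to 7.38, and its 4 h change was -0.01 (95% interval -0.21 to 0.20, adjusted p = 0.992). The gene lipl-8 lay between 3.76 and 4.26, under the median of every array, with a 4 h change of 0.07 (95% interval -0.16 to 0.30, adjusted p = 0.88). Their exact permutation p-values for 4 h against 0 h were 0.343, 0.971 and 0.657.

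**Figure D2:**
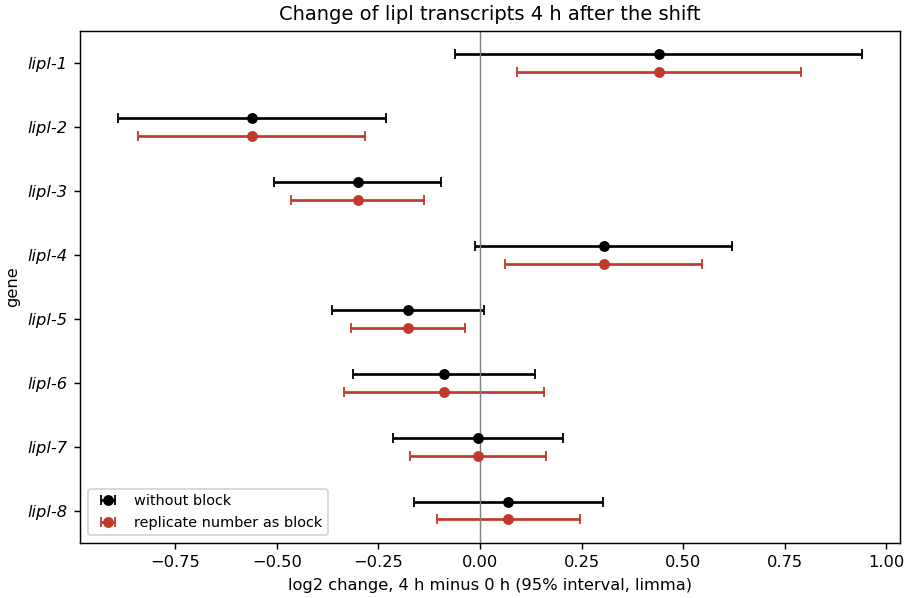
Log2 change from 0 h to 4 h (x axis) of each lipl gene (y axis), with the 95% interval from limma, without a block (black) and with replicate number as a block (red). Intervals of lipl-2 and lipl-3 lie below 0 in both fits, those of lipl-1, lipl-4 and lipl-5 leave 0 out with the block only, and none is adjusted for the number of probe sets.

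Within replicate numbers, 5 of the 8 members lay on 1 side of 0 h in all 4 pairs: lipl-2, lipl-3 and lipl-5 lower, lipl-1 and lipl-4 higher. The same held for 27.1% of all probe sets. In the blocked fit these 5 members had unadjusted p-values from 0.00129 to 0.0192, where 15.0% of all probe sets had an unadjusted p under 0.05, and lipl-2 alone passed after adjustment. The remaining lipl-6, lipl-7 and lipl-8 had mixed signs.

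**Figure D3:**
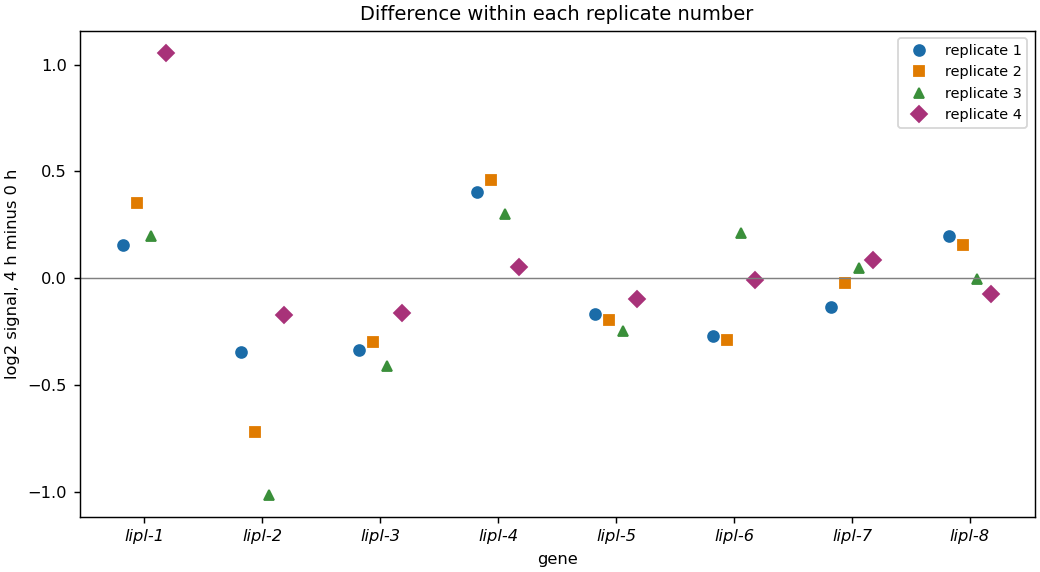
Difference in log2 signal between the 4 h and 0 h arrays of the same replicate number (y axis) for each lipl gene (x axis); points are replicate numbers. The 4 points of lipl-2, lipl-3 and lipl-5 lie below 0, those of lipl-1 and lipl-4 above it, and replicate 4 lies at 1.05 for lipl-1.

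Replicate 4 at 4 h was the highest of the 4 h arrays for 5 of 8 members, lipl-1, lipl-2, lipl-3, lipl-5 and lipl-7. It was the highest 4 h array for 23.5% of all probe sets. For lipl-2, lipl-3, lipl-4 and lipl-5 it was also the pair with the smallest difference from 0 h. Values without this array are given above for lipl-1 and lipl-2.

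Over the first hours no member passed. In limma, 0 of 8 passed at 1 h (smallest adjusted p = 0.805), as did 0% of all probe sets, and 0 of 8 had an unadjusted p under 0.05, where 6.42% of all probe sets did. At 2 h, 0 of 8 passed (smallest adjusted p = 0.624), beside 0.967% of all probe sets, and again 0 had an unadjusted p under 0.05, where 12.8% did. With 1 h and 2 h pooled against 0 h, 0 of 8 passed (smallest adjusted p = 0.559), beside 0.665%, and 0 had an unadjusted p under 0.05, where 11.8% did. From 1 h and 2 h pooled to 4 h, 0 of 8 passed, beside 0.373%, and lipl-2 alone of the 8 had an unadjusted p under 0.05, where 12.8% did. The F test over the 3 changes from 0 h called 0 of 8, beside 1.77%, with lipl-2 (unadjusted p = 0.0137, adjusted p = 0.223) and lipl-3 (unadjusted p = 0.04, adjusted p = 0.343) under 0.05 before adjustment, where 13.3% of all probe sets were. Among the fits without a single array, the F test called lipl-2 only in that without replicate 4 at 4 h (adjusted p = 0.0421). The 1 h and 2 h arrays exist only for replicates 1 and 2, so these comparisons also hold any difference between replicates 1 and 2 and replicates 3 and 4 at 0 h.

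The genes whose values followed lipl-2 most closely over the 12 arrays were the cuticle collagen gene col-124 (Pearson's r = 0.934), Y66D12A.24 (r = 0.902) and the ubiquinone synthesis gene clk-1 (r = 0.888). For lipl-3 they were txt-5 (r = 0.908), Y19D10A.4 (r = 0.906) and sma-10, a gene of body size signalling (r = 0.903). These are the highest of all genes with a probe set of their own, chosen for that, and they share arrays and normalization with the members. None of the 6 passed at 4 h, with sma-10 nearest (-0.52, adjusted p = 0.0532), from a mean of 6.46 at 0 h to 5.94 at 4 h.

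In the WBcel235 gene table no member is next to another member, and the closest pair, lipl-5 and lipl-3, has 42 protein-coding genes between them. Of 12 measured direct neighbours of the members, 1 passed at 4 h, where 2.48% of all genes passed. This was the dehydrogenase gene dhrs-4 beside lipl-1, which was singled out after its values were seen. It rose by 0.70 (adjusted p = 0.0185), from 6.94, 7.44, 7.44 and 7.39 in replicates 1 to 4 at 0 h to 7.74, 7.99, 8.06 and 8.22. As for lipl-1, replicate 4 was its highest 4 h array, but the groups did not overlap (as for 9.15% of all probe sets) and the differences were spread over all arrays.

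Of the known regulators, the gene mxl-3 for the repressor of lipl genes fell at 4 h. Its log2 signal was 7.31, 7.39, 6.88 and 6.91 in replicates 1 to 4 at 0 h, 6.93 and 6.91 at 1 h, 6.50 and 6.43 at 2 h, and 6.70, 6.66, 6.33 and 6.27 at 4 h. The 2 h and 4 h arrays all lay below the 0 h arrays, and at both 0 h and 4 h replicates 1 and 2 lay above replicates 3 and 4. No overlap of 0 h and 4 h arrays was seen for 9.15% of all probe sets. The change of mxl-3 at 4 h was -0.63 (SE 0.13, adjusted p = 0.0203, and 0.00108 with the replicate block). At 2 h it was -0.66 (adjusted p = 0.081). The 4 h call was lost without replicate 1 or 2 at 0 h (adjusted p = 0.0661 and 0.064) and without replicate 3 or 4 at 4 h (0.0725 and 0.0599).

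**Figure D4:**
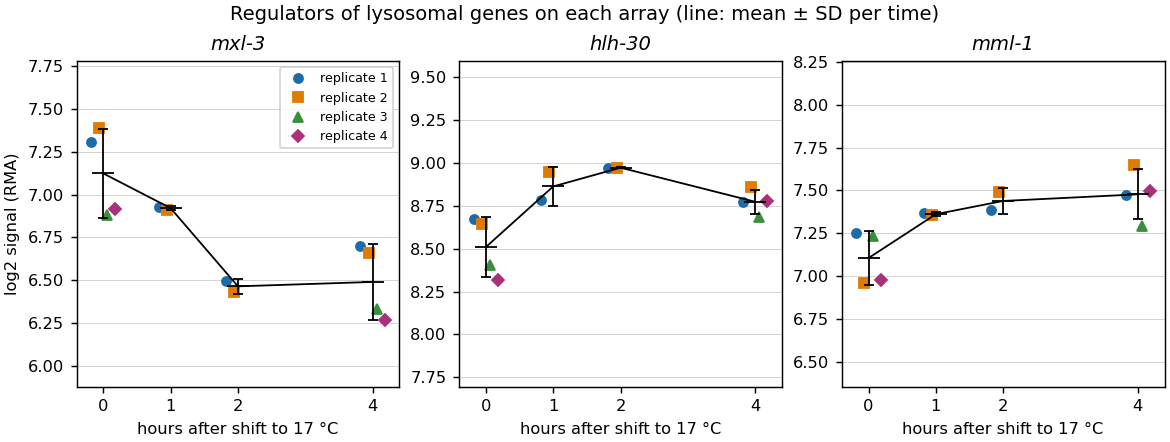
Log2 signal (y axis) of mxl-3, hlh-30 and mml-1 against hours after the shift (x axis); points are arrays, coloured by replicate number, and the line joins means with SD. The 2 h and 4 h arrays of mxl-3 lie below all its 0 h arrays, and those of hlh-30 lie above all its 0 h arrays.

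The activator gene hlh-30 read 8.67, 8.64, 8.41 and 8.32 in replicates 1 to 4 at 0 h. It read 8.78 and 8.95 at 1 h, 8.97 on both arrays at 2 h, and 8.69 to 8.86 at 4 h. Every array after the shift lay above every 0 h array, but no change passed, with 0.35 at 1 h (adjusted p = 0.543), 0.46 at 2 h (adjusted p = 0.072) and 0.26 at 4 h (adjusted p = 0.185). At 0 h replicates 1 and 2 of hlh-30 lay above replicates 3 and 4, and only replicates 1 and 2 have 1 h and 2 h arrays. Its 1 h and 2 h changes therefore also hold this difference. With replicates 1 and 2 alone, the 4 h change of hlh-30 was 0.16. Its 2 other probe sets changed by 0.22 and 0.35 at 4 h over all arrays and did not pass. The gene of the related factor MML-1 was 0.37 higher at 4 h (adjusted p = 0.0594), and its 4 h arrays (7.29 to 7.65) lay above its 0 h arrays (6.96 to 7.25). Such a lack of overlap between 0 h and 4 h arrays, as for hlh-30 and mml-1, held for 9.15% of all probe sets. The insulin pathway factor gene daf-16 did not pass (0.08, adjusted p = 0.749), and its 3 other probe sets changed by -0.16, 0.12 and 0.16. Of 27 measured regulators of lysosomal genes and nutrient sensing, 0 rose and 1 fell, mxl-3, where 2.48% of all genes passed, with a median change of 0.01.

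In the lipl-4 signalling route, no gene passed at 4 h. The lipid chaperone gene lbp-8 changed by -0.29 (adjusted p = 0.706) at levels of 2.66 to 3.53 over the 0 h and 4 h arrays. Each of these values was under the lower quartile of its array, so the change of lbp-8 is uncertain in size. Its probe set is of a kind that may bind related transcripts. The receptor genes nhr-49 and nhr-80 changed by 0.04 and 0.03 (adjusted p = 0.87 and 0.944). The genes of the cytosolic lipases, atgl-1 and hosl-1, changed by -0.13 and 0.15 (adjusted p = 0.749 and 0.661). The probe sets of atgl-1 disagreed in sign, the other 2 changing by 0.03 and 0.20, and their mean changed by 0.03. Among 27 measured genes of fat mobilisation and lipid signalling, 0 rose and 1 fell, where 2.48% of all genes passed, and the median change was 0.01. That gene, dgat-2, for an acyltransferase of triglyceride synthesis, went from 6.87 ± 0.0949 to 6.14 ± 0.232 (SD, n = 4 each), a change of -0.73 (SE 0.148, adjusted p = 0.0192), and its second probe set fell by 0.56 (adjusted p = 0.00789). The first call was lost without replicate 1, 2 or 3 at 0 h or replicate 2 at 4 h (adjusted p from 0.0538 to 0.0607).

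A second lipase family was measured on the same arrays. Of 16 measured lips genes, which encode lipase-related proteins, 0 rose and 1 fell at 4 h, with 12 above 0 and a median of 0.04. Over all genes, 2.48% passed at 4 h. The gene lips-10 fell by 0.58 (adjusted p = 0.0413), and its second probe set fell by 0.54 (adjusted p = 0.0141). The first call was lost without any of 9 single arrays, namely all 4 at 0 h, both at 2 h and replicates 1, 3 and 4 at 4 h (adjusted p up to 0.126). At 2 h 1 of the 16 rose, lips-5, by 1.00 (0.996, adjusted p = 0.00487), where 1.06% of all genes passed. It went to a mean of 7.47 from 6.47, and at 4 h it was at 6.68. Whether the lipl and lips families differ was not tested.

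Lysosomal hydrolases of other kinds rose in 4 of 45 measured genes at 4 h and fell in 0, with a median change of 0.04, where 2.48% of all 17118 genes passed and their median was -0.01. The 4 were cathepsin B-like protease genes. The level of cpr-1 went from 7.59 ± 0.237 to 8.62 ± 0.485 (SD, n = 4 each), a rise of 1.03 (SE 0.197, adjusted p = 0.0138). The gene cpr-3 rose by 0.79 (adjusted p = 0.000526, with its second probe set at 0.81, both of a kind that may bind related transcripts), and by 1.21 at 2 h (adjusted p = 0.000416). The genes cpr-4 and cpr-8 rose by 0.44 and 0.47 (adjusted p = 0.0231 and 0.0257). Leaving out replicate 3 or 4 at 0 h ended the call of cpr-1 (adjusted p = 0.0508 and 0.0519). That of cpr-4 was lost without replicate 1, 3 or 4 at 0 h or replicate 2 or 3 at 4 h (adjusted p up to 0.0758). That of cpr-8 was lost without replicate 1, 3 or 4 of either time (adjusted p up to 0.0813).

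The next lists were those of the lysosomal membrane and its proton pump, where again 2.48% of all genes is the background. Of 27 measured lysosomal membrane genes, 1 rose and 1 fell, with a median of 0.04. The scavenger receptor-like gene scav-4 rose by 0.61 (SE 0.0921, adjusted p = 0.00317). The membrane glycoprotein gene lmp-2 fell by 0.34 (adjusted p = 0.038, and 0.0523 with the replicate block), while its other probe set changed by 0.02. The probe set that fell may match several transcripts, and the other carries the plain suffix. The call of lmp-2 was also lost without any array at 0 h or replicate 1, 3 or 4 at 4 h (adjusted p up to 0.118). Of 19 measured vacuolar ATPase genes, 0 rose and 1 fell, vha-6, by 0.30 (adjusted p = 0.0421), while 14 had a change under 0, the median being -0.05. The call of vha-6 was lost without any single array but replicate 4 at 4 h (adjusted p up to 0.127). Its probe set may match several transcripts.

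Genes of fasting and autophagy were counted against the same background. Of 15 measured fasting response genes outside the lipl family, 0 passed at 4 h in limma and 3 had an unadjusted p under 0.05, with a median of 0.01. The smallest p-values were those of hacd-1, a hydroxyacyl-CoA dehydrogenase gene, at -0.51 (adjusted p = 0.0513, and 0.00508 with the replicate block) and of the carnitine palmitoyltransferase gene cpt-3 at 0.35 (adjusted p = 0.0934). From 1 h and 2 h pooled to 4 h, hacd-1 passed in limma (-0.68, adjusted p = 0.0392), as the 1 gene of the 15, where 0.403% of all genes passed. Among 26 measured autophagy genes, 1 rose, the receptor gene sqst-1, by 0.65 at 4 h (adjusted p = 0.0244) and by 1.04 at 2 h (adjusted p = 0.00919), and the list's median was 0.00. This probe set of sqst-1 may bind related transcripts, while its second, of the plain kind, rose by 0.56 at 4 h (adjusted p = 0.014). The 4 h call of the first was lost without replicate 1 or 2 at 0 h or replicate 1, 2 or 3 at 4 h (adjusted p up to 0.0795).

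**Figure D5:**
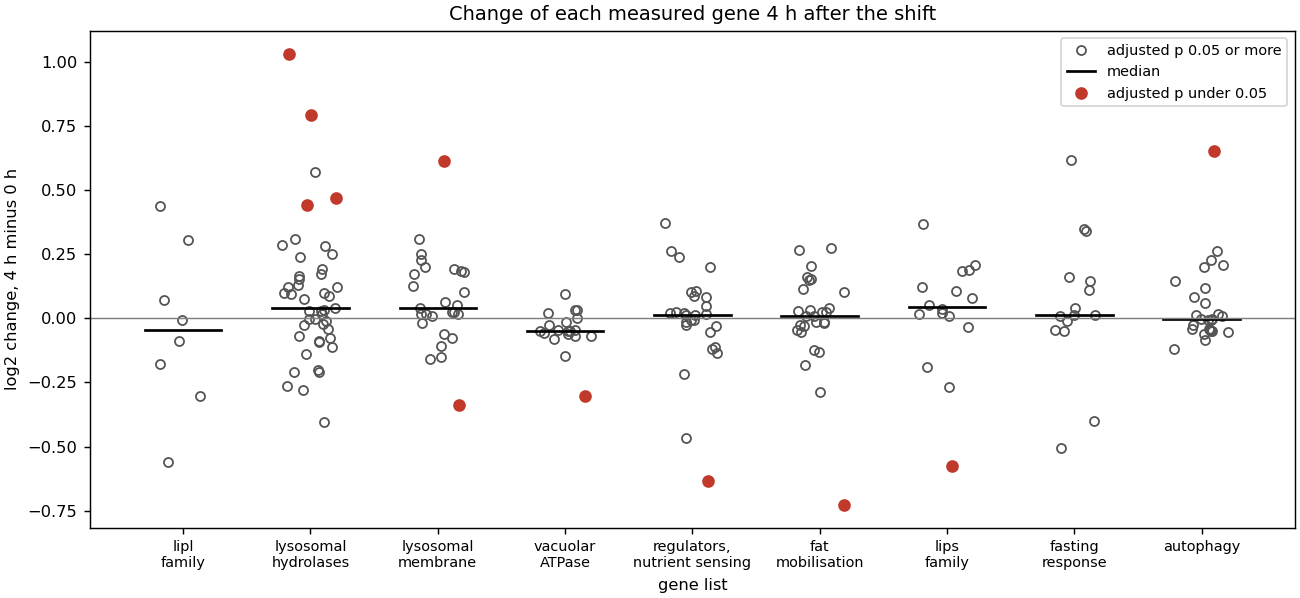
Log2 change from 0 h to 4 h (y axis) of each measured gene of the lipl family and of 8 other lists (x axis); filled points passed in limma, and bars are medians. None of the 8 lipl genes is filled, and list medians lie between -0.05 and 0.04.

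Intestine markers differed from 0 h in both directions at 4 h, with 9 of 13 above 0 and 4 below. Their summed signal, on the log2 scale and not tested, was 12.26 to 12.28 over the 0 h arrays and 12.32 to 12.38 over the 4 h arrays, so the groups did not overlap. Among single probe sets, 9.15% had no overlap of 0 h and 4 h arrays. Of these markers, pept-1, for a peptide transporter, was up by 0.91 (adjusted p = 0.000127), vha-6 was down as given above, and the median change was 0.11. The summed signal holds pept-1 and was not taken without it. Over all genes, 2.48% passed. An unadjusted p under 0.05 in limma was found for 8 of the 13 markers, where 12.7% of all probe sets had one. Of the markers that did not pass, the endoderm factor genes elt-2 and elt-7 changed by 0.20 and 0.23 (adjusted p = 0.347 and 0.144). The markers below 0 beside vha-6 were the esterase gene ges-1 at -0.18 (adjusted p = 0.238), pgp-1 at -0.15 and mtl-2 at -0.11. The part of this in the lipl values was not tested. Of 3 coelomocyte, 8 hypodermis, 8 muscle, 11 neuronal, 12 germline, 7 sperm and 5 yolk genes measured, 0 passed at 4 h in limma, and their summed signals at 0 h and 4 h overlapped. An unadjusted p under 0.05 was found for 4 of them, 2 of which were among the 3 coelomocyte genes, where 12.7% of all probe sets had one. Of 9 early embryo markers 1 fell, sdz-24, by 0.90 (adjusted p = 0.000304), where 2.48% of all genes passed.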

How the data were processed

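The 12 arrays hold the authors' RMA values on a log2 scale, 1 for each probe set (per the submitters' processing notes, no version). Amplified cDNA was labelled with biotin, per the labels' protocols. A genome build and other filters were not given in the sources used. All 22548 probe sets were fitted with limma 3.58.1 in R 4.3.3 (1 mean per time, all arrays, default eBayes, 8 residual and 5.03 prior degrees of freedom). P-values are two-sided and Benjamini-Hochberg adjusted over all probe sets, with a threshold of 0.05. The fit was tested on simulated data in which the arrays were drawn independently. That check does not cover the deviations shared between arrays, described below. Permutation tests used scipy 1.17.1. A gene with several probe sets of its own is represented by the brightest.

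The members and 17 gene lists were chosen with earlier results of these data known. Named are all members, up to 4 called genes per list (or 2 with the smallest p), called markers, a set of regulators and signalling genes and the 3 genes most like each of the 2 members with the smallest F test p. Outside this rule, dhrs-4, lips-5, elt-2, elt-7, ges-1, pgp-1 and mtl-2 were named with their values known.

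Same-numbered 0 h and 4 h arrays correlated in their deviations from group means (r = 0.169 to 0.314 in 4 pairs, other numbers -0.29 to 0.147), so the numbers were taken to pair them, from the values and not the labels. For other numbers, r was above 0 within replicates 1 and 2 (0.091 and 0.128) and within replicates 3 and 4 (0.0362 and 0.147). Between these sets it was below 0 (-0.29 to -0.122). The numbers do not pair 0 h with 1 h or 2 h arrays (r = -0.075 to 0.00773).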

Additional observations from a re-analysis of the deposited data

How the results depend on the processing

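The count of lipl members called at 4 h against 0 h was 0 and became 1 (lipl-2) with a replicate block in the fit of 12 arrays (adjusted p = 0.0485), and it ranged from 0 to 1 without single arrays. The F test count also ranged from 0 to 1 without single arrays. In both, the count of 1 came without replicate 4 at 4 h. No other alternative called a member in any comparison, the replicate block over 8 arrays included, nor did 2 settings restricted to replicates 1 and 2, chosen after seeing the data. Of 40 changes of members, 20 changed sign under some alternative, none of them called and none above 0.19 in size. The block ended or made no call at 4 h among the members and the named genes of the lists other than those of lipl-2, lmp-2 and hacd-1. Counts of the small lists moved by over 1.5 times: without single arrays, 1 to 5 lysosomal hydrolases (4 with all arrays) and 0 to 2 regulators (1) passed. For the lips, vacuolar ATPase, fat mobilisation, autophagy (1 each) and fasting (0) lists it was 0 to 1, and for the membrane and intestine lists 1 to 2 (2 each). Under the other planned settings it was 4 to 7 hydrolases, 1 to 3 regulators, 1 to 3 fat mobilisation genes (1), 1 to 2 lips genes (1), 1 to 2 lysosomal membrane genes (2), 0 to 1 vacuolar ATPase genes (1), 1 to 3 intestine markers (2) and 0 to 1 fasting genes (0). Restricted to replicates 1 and 2, 0 to 1 hydrolases and no gene of the other lists outside the intestine markers passed. Signal over background was not assessed, which limits lipl-4 and lipl-6 most. The signals of lipl-1 and lipl-2 lay below the array median on 11 and 7 of the 12 arrays, though on none below the lower quartile.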
